A study of Mus musculus with 3 samples.

Results

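Transcript levels of 10 genes of the extracellular matrix and the plasminogen system were followed across 3 sorted mouse cell populations. The genes were Thbs1, Spp1, Fn1, Vcan, Tgm2, Plau, Plaur, Mmp14, Timp1 and Timp2, found by symbol among the 23234 genes listed in each library, and each of the 10 had a row. All mice were wild-type C57BL/6J animals aged 6 to 15 weeks that had received lipopolysaccharide (LPS), a bacterial cell wall component, into both nostrils (10 µg in 10 µL of PBS). Double-positive cells (DP; CD45+Ly6G+SiglecF+) came from the nose at day 2 after LPS, nasal neutrophils (CD45+Ly6G+SiglecF-) from the nose at day 1, and blood neutrophils (CD45+Ly6G+SiglecF-) from peripheral blood at day 1. No untreated animals are among these libraries, and how many mice were pooled is not given in the sources used here. Each population was 1 library, so the differences described carry neither a replicate error nor a test. The day and the gate differ together between DP and the other libraries, and tissue cannot be told apart from library in the comparison of nasal with blood neutrophils. Levels are given as FPKM, in which fragments are divided by the length of the transcript and by the size of the library, and which can therefore be set side by side between genes. Ratios are differences of log2(FPKM + 1), which understate the ratio of genes at low levels.

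Cells remodel their surroundings with secreted matrix proteins, with proteases that cut matrix and with inhibitors that hold those proteases back. Urokinase, encoded by Plau, is a secreted protease that turns plasminogen into plasmin, and its receptor, encoded by Plaur, holds it at the cell surface next to integrins. Thrombospondin 1 and osteopontin are matricellular proteins, meaning that they signal to cells through surface receptors rather than build fibres. Neutrophils are best known in this field for the collagenase and gelatinase stored in their granules, encoded by Mmp8 and Mmp9.

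The libraries differed in depth and in the cells they hold traces of. From the smallest steps between values, a level of 1 FPKM over 1 kb of transcript stood for about 56 fragments in DP cells, 13 in the neutrophils of the nose and 55 in those of blood, so nasal neutrophils were sequenced least deeply. The SiglecF gene, listed as Siglec5, was at 168 FPKM in DP cells, 9.92 in the neutrophils of the nose and 18.7 in those of blood, and Ptprc, the CD45 gene, at 445, 137 and 719. Ly6g was not analysed here. The neutrophil marker gene S100a8 was listed at 0 in blood neutrophils, with 7656 FPKM in DP cells and 29818 in the neutrophils of the nose, and 91 genes were listed at 0 in blood neutrophils while at 10 FPKM or more in both other libraries, so a listed 0 there can be a failed estimate. Both nasal libraries held epithelial and olfactory transcripts that were near absent in blood neutrophils, with values given below.

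Of the 10 genes, 7 had the same order of levels: highest in nasal neutrophils, lower in DP and lowest in blood neutrophils. These were Thbs1, Fn1, Vcan, Tgm2, Plau, Plaur and Timp1. Spp1 and Mmp14 were highest in DP, followed by nasal neutrophils, with blood neutrophils lowest. Timp2 alone was highest in blood neutrophils and lowest in DP. Genes with a mean of 1 FPKM or more over the 3 libraries are called tested genes here, and there were 10719. Of these, 15.8% had the first order, 40.2% the second and 7.96% the third. Vcan and Plau fell below that mean, so the count to set beside 15.8% is 5 of 8 tested members. With 1 library per group none of these orders has a spread, and the neighbours Spp1 and Mmp14 in DP and nasal neutrophils lay within 2-fold of each other, as did Plaur and Plau, and so did Timp2 in nasal and blood neutrophils, at 4.12 and 5.31 FPKM. The 10 genes summed to 1097 FPKM in DP cells, 2565 in the neutrophils of the nose and 255 in those of blood, and Plaur held 74.5%, 61.9% and 88.7% of these sums.

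**Figure D1:**
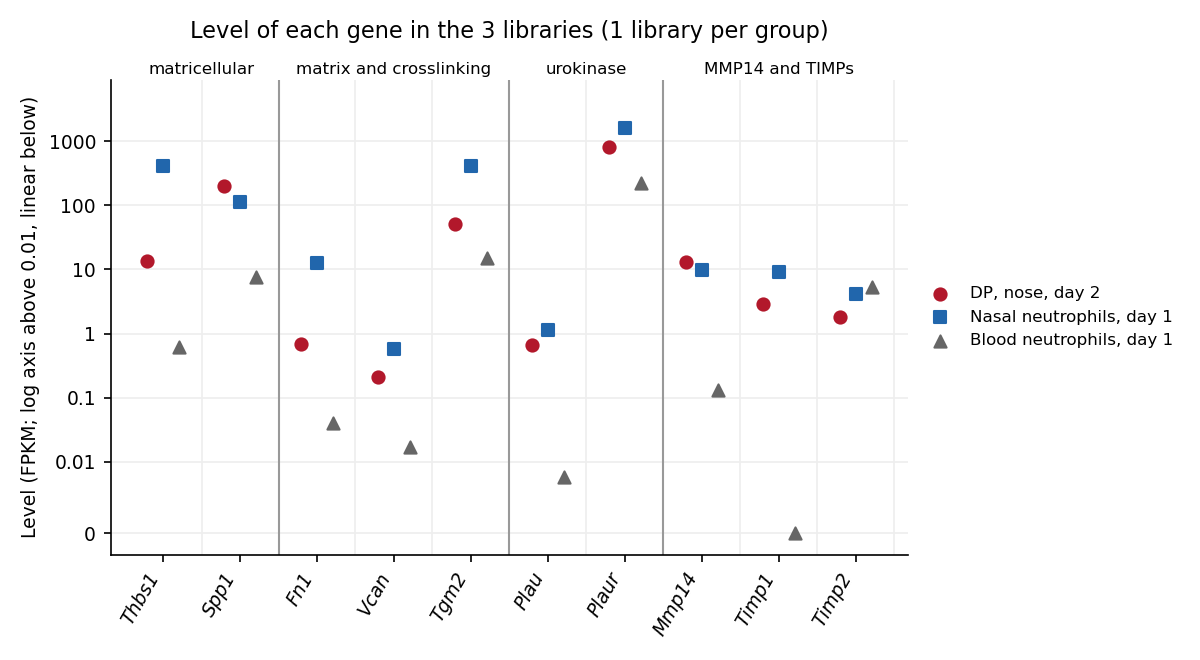
Level of the 10 genes in FPKM (vertical axis, log above 0.01 and linear below) in DP, nasal neutrophils and blood neutrophils, with 1 point per library and no error bar since each group is 1 library. Thbs1, Fn1 and Tgm2 stand far higher in nasal neutrophils than in DP, Spp1 and Mmp14 are near level between the nasal libraries, and Timp2 is the gene with its highest point in blood neutrophils.

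Thbs1, which encodes thrombospondin 1, a secreted glycoprotein that binds CD47 and CD36 and can activate latent TGF-beta, showed the widest span of the 10. It was at 13.5 FPKM in DP cells, 409.7 in the neutrophils of the nose and 0.61 in those of blood. By rank among the 23234 genes, which does not depend on scaling, it was number 4309 in DP cells, 212 in the neutrophils of the nose and 8598 in those of blood. The log2 ratio was -4.83 for DP over nasal neutrophils and 7.99 for nasal over blood neutrophils. These placed it at percentile 0.252 and 99.8 of all tested genes. The blood value rests on about 197 fragments, so it was low and not missing. DP still held more than blood neutrophils, with a log2 ratio of 3.16. Platelets are a known store of thrombospondin 1, and the 12 platelet and megakaryocyte markers summed to 9.46 FPKM in DP cells, 6.07 in the neutrophils of the nose and 34.1 in those of blood. The highest of them were Ppbp, at 5.06 FPKM in DP cells, 2.75 in the neutrophils of the nose and 12.8 in those of blood, and Pf4, at 2.71, 1.84 and 9.57 FPKM. Gp5, Gp9 and Treml1 were listed at 0 in nasal neutrophils. The part of platelets in the Thbs1 values was not tested.

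The receptor genes Cd47 and Cd36 did not share that span. Cd47, which encodes its widely expressed receptor, was at 208 FPKM in DP cells, 194 in the neutrophils of the nose and 156 in those of blood. The level of Thbs1 per unit of Cd47 was 0.0646 in DP cells, 2.11 in the neutrophils of the nose and 0.00394 in those of blood, a ratio within each library that no scaling alters. Cd36, the scavenger receptor that also binds thrombospondin 1, was higher in DP at 24.1 FPKM, with 6.70 in the neutrophils of the nose and 0.93 in those of blood. Of the 17 genes listed as thrombospondins and their receptors, 8 were tested. Thbs2, Thbs3, Thbs4 and Comp, the other family members, were each under 0.5 FPKM in every library.

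Spp1, which encodes osteopontin, a secreted phosphoprotein that binds CD44 and integrins, was the most abundant secreted product among the 10 in DP. It was at 196.7 FPKM in DP cells, 114.5 in the neutrophils of the nose and 7.75 in those of blood. The 2 nasal libraries were close, with a log2 ratio of 0.78 for DP over nasal neutrophils, and 0.20 once the median ratio of all tested genes was subtracted. Against blood neutrophils the log2 ratios were 4.50 for DP and 3.72 for nasal neutrophils. Within each library, Spp1 exceeded Thbs1 by 14.6 times in DP and 12.6 times in blood neutrophils, while in nasal neutrophils Spp1 was at 0.279 of the Thbs1 level. The matricellular pair therefore had opposite weights in the nasal libraries. Macrophages also make osteopontin, and the 13 macrophage markers summed to 747 FPKM in DP cells, 1022 in the neutrophils of the nose and 550 in those of blood, with C1qa, C1qb and C1qc listed at 0 in blood neutrophils. Their part in the Spp1 values was not tested.

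Among receptors of osteopontin and fibronectin, 7 of 13 genes were tested, 0 were at least 4-fold higher in DP than in nasal neutrophils and 1, Cd44, was at least 4-fold lower. Over all tested genes the shares were 8.42% and 3.62%. Cd44 encodes the receptor of hyaluronan and osteopontin and was at 72.7 FPKM in DP cells, 371.6 in the neutrophils of the nose and 356 in those of blood. Itga5 and Itgb1, whose products pair as the classical fibronectin receptor, were near level in the nasal libraries and lower in blood. Itga5 was at 28.3 FPKM in DP cells, 43.1 in the neutrophils of the nose and 6.36 in those of blood. Itgb1 was at 26.1, 38.8 and 3.26 FPKM in the same libraries. Itga4, whose product also binds both proteins, had the reverse order, at 5.55 FPKM in DP cells, 3.98 in the neutrophils of the nose and 15.6 in those of blood.

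Fn1 encodes fibronectin, the adhesive glycoprotein of plasma and provisional matrix. It was at 0.68 FPKM in DP cells, 12.7 in the neutrophils of the nose and 0.040 in those of blood. The log2 ratio was -3.02 for DP over nasal neutrophils, percentile 1.09 of tested genes, and 3.72 for nasal over blood neutrophils. By plain FPKM the gap was 18.6 times between the nasal libraries. The value in blood neutrophils corresponds to about 18 fragments over the longest coding transcript and about 3 if the shortest of 8 coding transcripts was the one expressed. Fn1 is the 1 tested member whose other libraries average under 1 FPKM, so it entered the tested set through nasal neutrophils alone.

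Vcan, which encodes versican, a large proteoglycan that binds hyaluronan, was near the bottom of the range. It was at 0.21 FPKM in DP cells, 0.59 in the neutrophils of the nose and 0.017 in those of blood, below the mean of 1 FPKM needed for testing. Its 5 coding transcripts differ widely in length, so these values rest on about 27 to 147 fragments in DP, 17 to 93 in nasal neutrophils and 2 to 12 in blood neutrophils. Of the wider list of proteoglycan and hyaluronan genes, 15 of 38 were tested. In DP over nasal neutrophils 1 was past 4-fold higher and 3 past 4-fold lower, against 8.42% and 3.62% of all tested genes. Tnfaip6, whose product crosslinks hyaluronan in inflammation, was at 1.86 FPKM in DP cells, 40.6 in the neutrophils of the nose and 4.44 in those of blood. The proteoglycan gene Gpc3 ran the other way, at 34.4 FPKM in DP cells, 1.00 in the neutrophils of the nose and 0.21 in those of blood.

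Tgm2 encodes tissue transglutaminase, an enzyme that crosslinks proteins and, at the cell surface, helps integrins bind fibronectin. It was at 50.3 FPKM in DP cells, 414.8 in the neutrophils of the nose and 14.8 in those of blood. Its log2 ratio for DP over nasal neutrophils, -3.02, was nearly that of Fn1, but only with the pseudocount of 1 FPKM. By plain FPKM, nasal neutrophils exceeded DP by 8.25 times for Tgm2 and 18.6 times for Fn1. With a pseudocount of 0.1 the log2 ratios were -3.04 for Tgm2 and -4.03 for Fn1. Tgm2 was 73.7 times as abundant as Fn1 in DP and 32.7 times in nasal neutrophils. For nasal over blood neutrophils the log2 ratio was 4.71, percentile 98.3 of tested genes. F13a1, which encodes the A subunit of coagulation factor XIII and is known from monocytes, macrophages and platelets, was at 1.04 FPKM in DP cells, 16.9 in the neutrophils of the nose and 1.15 in those of blood. Of 10 transglutaminase genes Tgm2, F13a1 and Tgm1 were tested, and each of the 3 was at least 4-fold lower in DP than in nasal neutrophils. Over all tested genes the share was 3.62%. Markers of monocytes and dendritic cells also differed in this comparison, with a sum over 13 genes of 1224 FPKM in DP cells, 2064 in the neutrophils of the nose and 532 in those of blood, and their part in the Fn1, Tgm2 and F13a1 values was not tested.

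Plaur was the most abundant of the 10 genes in every library. It was at 818 FPKM in DP cells, 1588 in the neutrophils of the nose and 226 in those of blood, which made it number 109, 51 and 366 by rank. The log2 ratios were -0.96 for DP over nasal neutrophils, 2.81 for nasal over blood neutrophils and 1.85 for DP over blood neutrophils. In contrast, Plau, the gene of the ligand, was scarce. It was at 0.66 FPKM in DP cells, 1.13 in the neutrophils of the nose and 0.0080 in those of blood. The blood value amounts to about 1 fragment, against about 86 in DP and 34 in nasal neutrophils, so no ratio against blood is given. Plaur exceeded Plau by 1240 times in DP and 1407 times in nasal neutrophils.

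Of the 21 genes listed for plasminogen activation, 11 were tested. For DP over nasal neutrophils 0 passed 4-fold upward and 2 downward, against 8.42% and 3.62% of all tested genes. For nasal over blood neutrophils 5 passed it upward and 0 downward, against 13.1% and 3.23%, with 2 of the 5 listed at 0 in blood. Plat, which encodes tissue plasminogen activator, was at 21.9 FPKM in DP cells, 11.5 in the neutrophils of the nose and listed at 0 in those of blood, well above Plau in both nasal libraries. Among the inhibitors, Serpine2 (protease nexin 1) was at 141 FPKM in DP cells, 69.0 in the neutrophils of the nose and 0.40 in those of blood. Serpinb2 (plasminogen activator inhibitor 2) was at 0.85 FPKM in DP cells, 17.4 in the neutrophils of the nose and listed at 0 in those of blood. Serpinb2 entered the tested set through nasal neutrophils alone, so its direction in both counts above follows from the filter. Plasminogen itself, Plg, was listed at 0 in all 3 libraries, and it is known as a product of the liver. Itgam, which encodes the integrin chain that pairs with the Itgb2 product beside the urokinase receptor, was at 26.9 FPKM in DP cells, 137.3 in the neutrophils of the nose and 136.4 in those of blood. Plaur per unit of Itgb2 was 2.09 in DP cells, 3.27 in the neutrophils of the nose and 0.325 in those of blood.

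**Figure D2:**
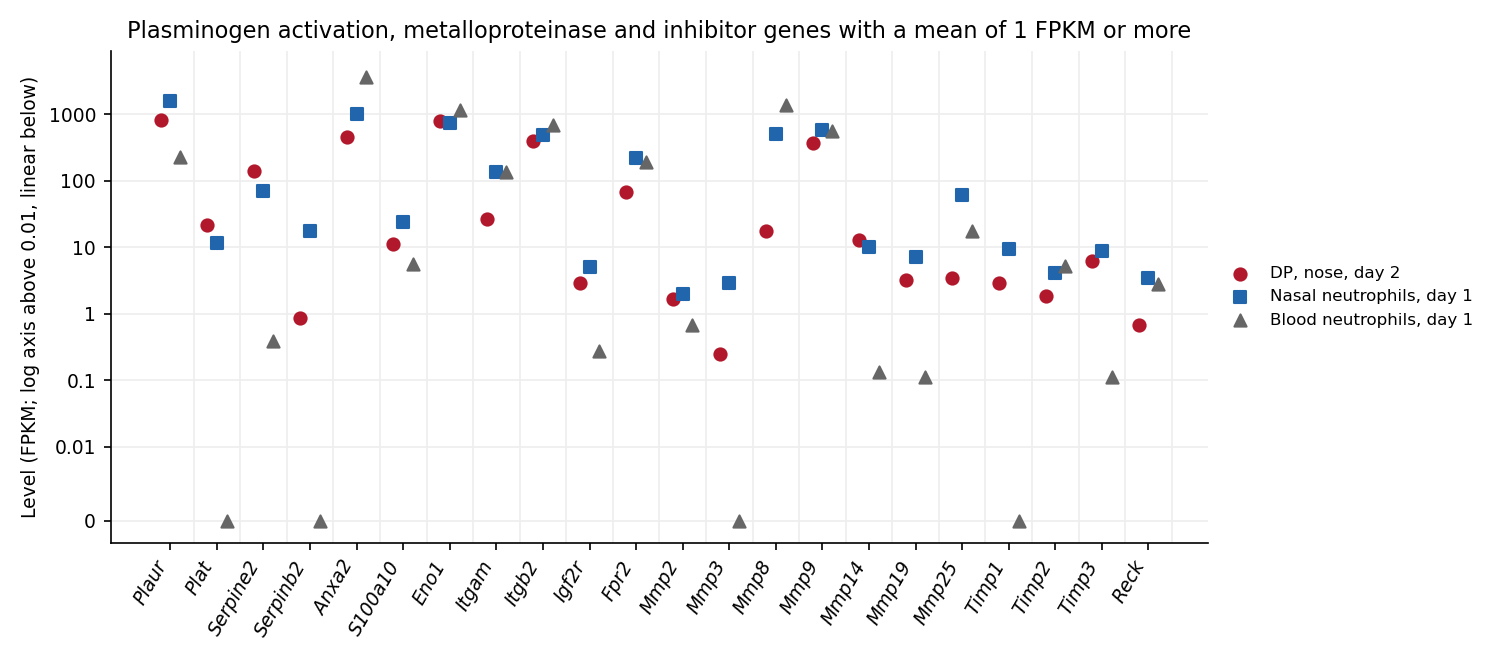
Levels in FPKM (vertical axis, log above 0.01 and linear below) of the genes of plasminogen activation, of the matrix metalloproteinases and of their inhibitors that reached a mean of 1 FPKM, with 1 point per library for DP, nasal neutrophils and blood neutrophils. Plaur is higher in both nasal libraries than in blood neutrophils, Serpine2 is higher in DP and Serpinb2 in nasal neutrophils, and Mmp8 is high in blood and nasal neutrophils and low in DP.

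Mmp14 encodes a membrane-bound metalloproteinase that cuts collagen at the cell surface and activates the product of Mmp2. It was at 12.96 FPKM in DP cells, 9.95 in the neutrophils of the nose and 0.13 in those of blood. The nasal libraries were near level, with a log2 ratio of 0.35 for DP over nasal neutrophils that became -0.22 with the median of all tested genes subtracted and -0.26 with upper-quartile scaling, so its direction rests on the scaling. Against blood neutrophils the log2 ratios were 3.62 for DP and 3.27 for nasal neutrophils, with about 19 fragments behind the blood value. The secreted granule proteases had another order. Mmp8 was at 17.7 FPKM in DP cells, 507.6 in the neutrophils of the nose and 1369 in those of blood. Mmp9 was at 374 FPKM in DP cells, 581 in the neutrophils of the nose and 567 in those of blood. Mmp25, which encodes another membrane-bound metalloproteinase and is known from neutrophils, was at 3.50 FPKM in DP cells, 61.8 in the neutrophils of the nose and 17.8 in those of blood. Mmp2 was low, at 1.69 FPKM in DP cells, 1.95 in the neutrophils of the nose and 0.68 in those of blood. Of the 22 metalloproteinase genes, 7 were tested, and Mmp8 and Mmp25 were the 2 at least 4-fold lower in DP than in nasal neutrophils. Over all tested genes the share was 3.62%.

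Timp1 and Timp2 encode tissue inhibitors of metalloproteinases, and Timp2 protein is also known to help the Mmp14 product activate that of Mmp2. Timp1 was at 2.87 FPKM in DP cells, 9.30 in the neutrophils of the nose and listed at 0 in those of blood. Its log2 ratio for DP over nasal neutrophils was -1.41, and about 141 fragments in DP and 105 in nasal neutrophils lie behind it. Timp2 was at 1.82 FPKM in DP cells, 4.12 in the neutrophils of the nose and 5.31 in those of blood. The log2 ratios of Timp2 were -0.86 for DP over nasal neutrophils, -0.30 for nasal over blood neutrophils and -1.16 for DP over blood neutrophils. It was thus the 1 tested member that was not higher in the nasal libraries than in blood. Timp1 and Timp3 held most of the summed Timp level in the nose. In blood Timp2 held most of it, with Timp1 taken at its listed 0, which can be a failed estimate. Timp3 was at 6.28 FPKM in DP cells, 8.86 in the neutrophils of the nose and 0.11 in those of blood. Mmp14 per unit of the summed Timp genes was 1.17 in DP cells, 0.443 in the neutrophils of the nose and 0.0244 in those of blood. The blood value also takes Timp1 at its listed 0. Fibroblasts and other stroma also express Timp genes and Mmp14, and 12 stromal markers summed to 339 FPKM in DP cells, 162 in the neutrophils of the nose and 33.4 in those of blood. Rgs5 held most of both nasal sums, at 307 and 119 FPKM. Without it the other 11 summed to 31.7 FPKM in DP cells, 42.5 in the neutrophils of the nose and 33.4 in those of blood. DP then stood lowest, but this rests on Acta2, which gave 6.49, 24.2 and 32.1 FPKM of these sums. Dcn, the main part of the DP sum, had the reverse order with 21.7, 7.54 and 0.011 FPKM. The stromal sums therefore give no firm order of the libraries. Pdgfra, Lum and Col3a1 were listed at 0 in blood neutrophils. The part of stroma in these values was not tested.

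Profiles over the 3 libraries were compared after subtracting each gene's mean on the log2(FPKM + 1) scale. Among the tested members, the closest pairs were Plaur with Timp1, at a distance of 0.42, Spp1 with Mmp14, at 0.62, and Fn1 with Tgm2, at 0.82. With 3 points per profile, such closeness is a description. It rests on the pseudocount of 1 FPKM and, for Timp1, on a listed 0 in blood neutrophils. With a pseudocount of 0.1, the log2 ratio of nasal over blood neutrophils was 2.81 for Plaur and 6.56 for Timp1. In that setting it was 3.87 for Spp1 and 5.43 for Mmp14, and 6.51 for Fn1 and 4.79 for Tgm2. The start regions of the first pairs of genes are shown because their profiles lay closest with the pseudocount of 1 FPKM. Each is 250 bases before to 50 bases after the annotated gene start, from RefSeq on GRCm38.p6, and 6 of the 10 genes matched. The files themselves were made on mm9, so these coordinates belong to the RefSeq table only. Capitals mark matches on either strand to AP-1 (TGANTCA), the core of the cAMP response element (TGACG), Sp1 (GGGCGG) and the TATA box (TATAAA). The windows, all on the plus strand, are chr7:24462233-24462532 for Plaur, chrX:20869916-20870215 for Timp1, chr5:104434861-104435160 for the first annotated start of Spp1 and chr14:54431348-54431647 for Mmp14.
Plaur: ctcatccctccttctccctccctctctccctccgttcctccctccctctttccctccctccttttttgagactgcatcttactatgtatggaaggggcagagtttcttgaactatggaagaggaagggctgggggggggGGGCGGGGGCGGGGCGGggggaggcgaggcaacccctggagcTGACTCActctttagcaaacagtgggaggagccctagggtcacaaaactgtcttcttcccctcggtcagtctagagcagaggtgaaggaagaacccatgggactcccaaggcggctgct
Timp1: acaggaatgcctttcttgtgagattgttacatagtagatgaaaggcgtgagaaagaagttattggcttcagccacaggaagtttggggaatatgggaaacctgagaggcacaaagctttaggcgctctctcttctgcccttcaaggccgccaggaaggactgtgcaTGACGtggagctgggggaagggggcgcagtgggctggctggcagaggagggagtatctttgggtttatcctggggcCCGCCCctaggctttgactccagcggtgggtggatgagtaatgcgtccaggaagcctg
Spp1: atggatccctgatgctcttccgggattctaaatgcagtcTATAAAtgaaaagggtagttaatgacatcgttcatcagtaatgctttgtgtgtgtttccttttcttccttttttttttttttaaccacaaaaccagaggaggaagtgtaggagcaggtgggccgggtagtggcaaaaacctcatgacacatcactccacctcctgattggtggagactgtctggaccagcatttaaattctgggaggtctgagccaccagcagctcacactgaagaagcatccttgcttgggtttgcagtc
Mmp14: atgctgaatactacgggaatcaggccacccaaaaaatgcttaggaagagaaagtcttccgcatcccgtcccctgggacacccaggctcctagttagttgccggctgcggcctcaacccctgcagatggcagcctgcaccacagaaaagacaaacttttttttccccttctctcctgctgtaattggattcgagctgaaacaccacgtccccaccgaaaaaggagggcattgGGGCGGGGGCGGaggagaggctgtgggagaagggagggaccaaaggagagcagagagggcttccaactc
The window of Plaur held 1 AP-1 match, whose first base lies 69 bases before the start, and 3 Sp1 matches that abut or share a base. The window of Timp1 held 1 cAMP response core and 1 Sp1 match, that of Mmp14 a pair of adjoining Sp1 matches, and that of Spp1 a TATAAA whose first base lies 211 bases before the start. Of 32851 windows in the table, 7.81% held an AP-1 match, 20.8% a cAMP response core, 35.7% an Sp1 match and 13.6% a TATAAA. The motif letters were thus not shared within the Plaur and Timp1 pair beyond Sp1, nor at all within the Spp1 and Mmp14 pair.

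The comparison of DP with nasal neutrophils sets Ly6G-positive nasal cells with SiglecF at day 2 against those without it at day 1. Gate and day therefore differ together. Of the 8 members tested, none passed 4-fold upward in DP and 3 passed it downward, namely Thbs1, Fn1 and Tgm2. Fn1 entered the tested set through nasal neutrophils alone, so its direction in this count follows from the filter. Among all tested genes, 8.42% passed 4-fold upward and 3.62% downward. The median log2 ratio of the 8 members was -1.18, against 0.57 over all tested genes. With ratios centred on that median the same 3 members were at least 4-fold lower, while over all genes the split changed from 903 higher and 388 lower to 360 higher and 773 lower. In bulk libraries, fewer cells of a type and less RNA per cell cannot be told apart. The 15 neutrophil markers also stood lower in DP, with a sum of 13014 FPKM in DP cells, 59789 in the neutrophils of the nose and 80416 in those of blood. The blood sum takes S100a8 at its listed 0, and without that gene the other 14 summed to 5358, 29971 and 80416 FPKM in DP, nasal neutrophils and blood neutrophils.

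The comparison of nasal with blood neutrophils uses the same gate and day in both places. Of the 8 tested members 7 were at least 4-fold higher in the nose, with Timp2 as the exception, and 0 were at least 4-fold lower. Fn1 is among the 7, and its direction here too follows from the filter, which it passed through nasal neutrophils alone. Among all tested genes, 13.1% passed 4-fold upward and 3.23% downward. The 7 had log2 ratios between 2.81 for Plaur and 7.99 for Thbs1, and the median of the 8 was 3.54 against 0.41 over all tested genes. Timp1 is counted on the log2(FPKM + 1) scale against a listed 0. Centring left 7 members at least 4-fold higher, while the split over all genes changed from 1408 higher and 346 lower to 968 higher and 609 lower. Transcripts of nasal tissue moved with this comparison. The 12 epithelial markers summed to 1752 FPKM in DP cells, 1643 in the neutrophils of the nose and 2.28 in those of blood. Epcam, Krt5, Cldn7 and Foxj1 were listed at 0 in blood alone, and Scgb1a1 in all 3 libraries. The 10 olfactory neuron markers summed to 2099 FPKM in DP cells, 1082 in the neutrophils of the nose and 4.89 in those of blood, with Omp, Cnga2, Gng13, Gap43, Cyp2g1 and Rtp1 listed at 0 in blood. The part of nasal tissue RNA in the 7 values was not tested.

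DP and blood neutrophils differ in gate, tissue and day at once, and both libraries also serve in the comparisons above. Of the 8 members 3 were at least 4-fold higher in DP, namely Spp1, Mmp14 and Thbs1, and 0 were at least 4-fold lower. Among all tested genes, 24.0% passed 4-fold upward and 3.57% downward, so the share of members higher was not far from that of all genes. The median of the 8 members was 1.90 against 0.95 over all tested genes. Timp1, Plaur and Tgm2 lay just short of 4-fold, with log2 ratios of 1.95, 1.85 and 1.69. At 2-fold the members counted 6 higher and 1 lower, against 48.6% and 9.49% of all tested genes. Fn1 was at 0.69, which became -0.26 with the median subtracted. Centring put Timp2 at -2.11, past 4-fold lower, and changed the split over all genes from 2577 higher and 383 lower to 1116 higher and 971 lower.

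**Figure D3:**
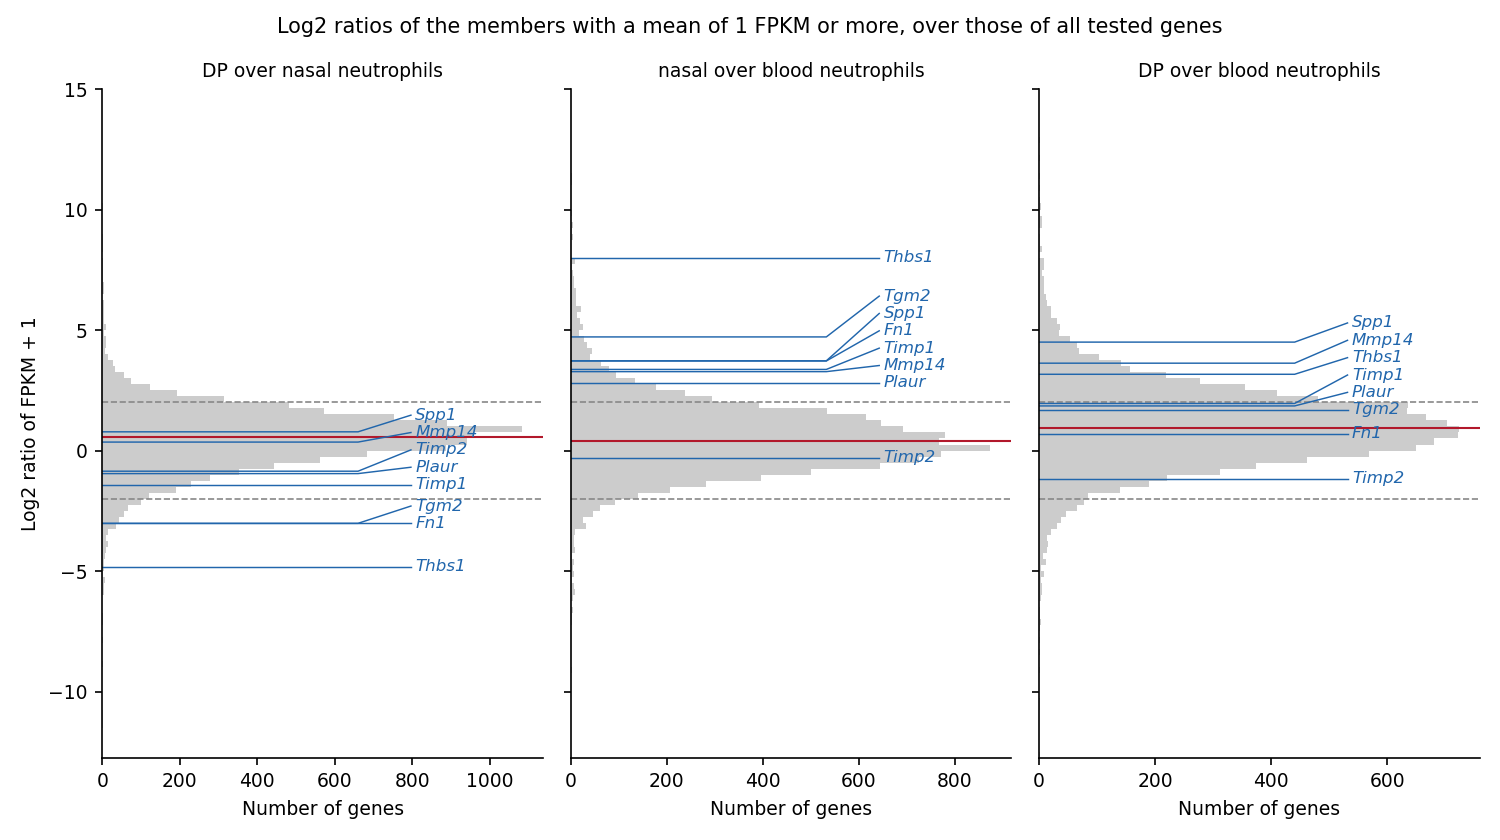
Log2 ratio of FPKM + 1 (vertical axis) of the 8 tested members, as labelled lines, over the histogram of all 10719 tested genes (horizontal axis, number of genes) for each comparison. Dashed lines mark 4-fold and the red line the median of all tested genes; Thbs1 lies at the lower edge for DP over nasal neutrophils and at the upper edge for nasal over blood neutrophils.

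The members were read against the wider matrix gene lists. Matrix glycoproteins had 14 of 52 genes tested, of which 0 were at least 4-fold higher and 2, Thbs1 and Fn1, at least 4-fold lower in DP than in nasal neutrophils. Over all tested genes these shares were 8.42% and 3.62%. In nasal over blood neutrophils 8 of the 14 passed 4-fold upward, including 2 against a listed 0 in blood, and 0 passed it downward. Over all tested genes 13.1% and 3.23% did. Thbs1, Spp1 and Fn1 are among the 8, and 5 of 11 passed it upward without the members. The direction of Fn1 in both counts follows from the filter. Among the 8, Sparc, which encodes a collagen-binding matricellular protein, was at 8.08 FPKM in DP cells, 11.4 in the neutrophils of the nose and 0.081 in those of blood. Cyr61, which encodes a matricellular protein of the CCN family, was at 10.6 FPKM in DP cells, 15.2 in the neutrophils of the nose and listed at 0 in those of blood. Ecm1 was higher in DP, at 59.4 FPKM, with 24.8 in the neutrophils of the nose and 2.37 in those of blood. Collagen genes were low. Of 36, 2 were tested, and Col15a1, the higher of the pair, was at 14.9 FPKM in DP cells, 2.17 in the neutrophils of the nose and 0.060 in those of blood.

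Further proteases and the TGF-beta system completed the lists. Of 27 ADAM and ADAMTS genes 8 were tested, with 0 past 4-fold higher and 3 past 4-fold lower in DP than in nasal neutrophils. These were Adam8, at 35.6 FPKM in DP cells, 180 in the neutrophils of the nose and 147 in those of blood, and Adam15 and Adam19. Of 18 genes for collagen modifying enzymes and heparanase 10 were tested, and 0 passed 4-fold in either direction between DP and nasal neutrophils. In the TGF-beta list 9 of 17 were tested, with 1 past 4-fold higher and 1 past 4-fold lower in DP than in nasal neutrophils. For this comparison the shares over all tested genes were 8.42% higher and 3.62% lower. Tgfbr1, a receptor gene, was at 245 FPKM in DP cells, 31.1 in the neutrophils of the nose and 20.7 in those of blood. Smad3, which encodes a transducer of that receptor, was at 1.64 FPKM in DP cells, 17.6 in the neutrophils of the nose and 3.11 in those of blood. Tgfb1 was at 3.36, 8.76 and 0.20 FPKM in DP, nasal neutrophils and blood neutrophils.

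**Figure D4:**
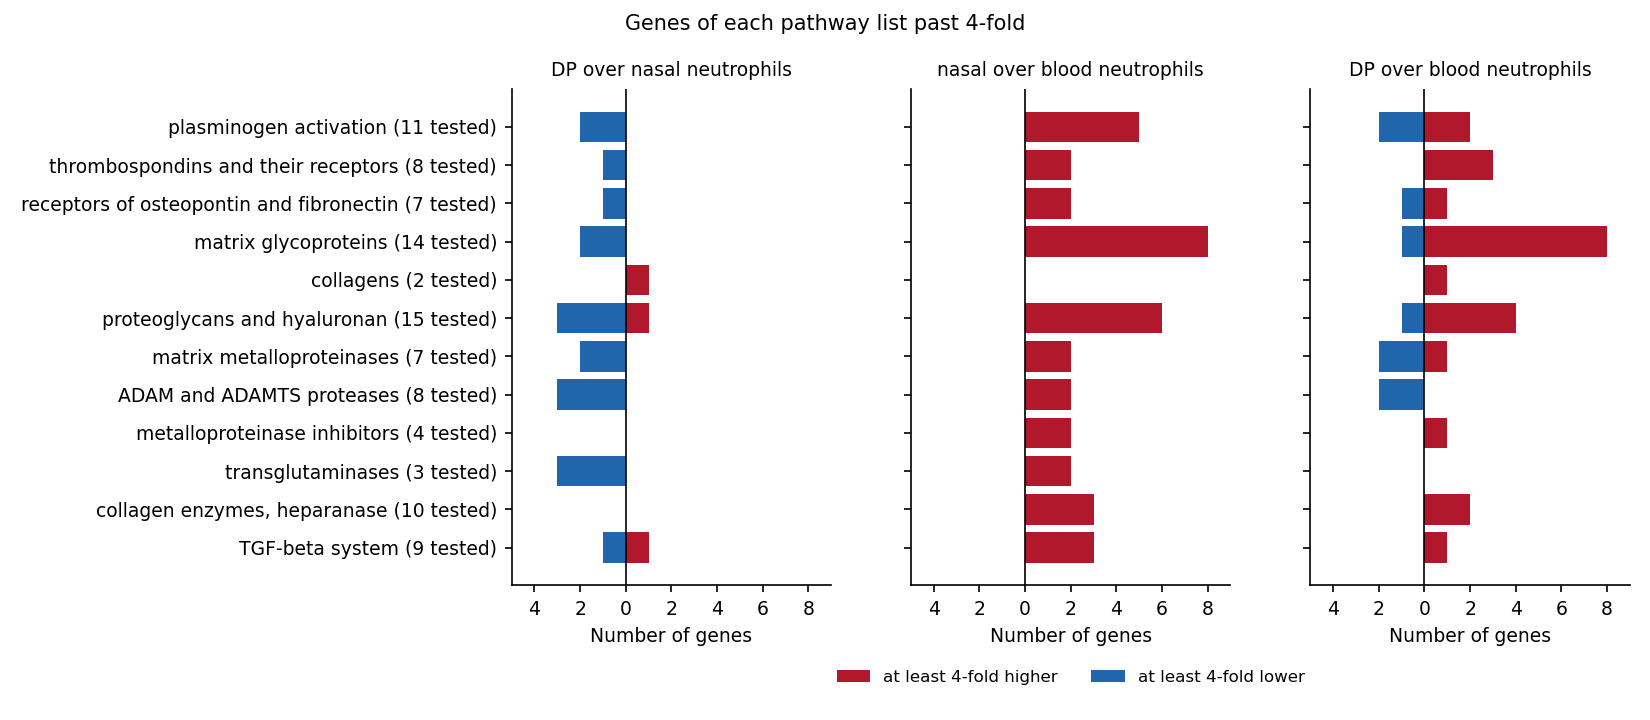
Number of genes (horizontal axis) at least 4-fold higher (red, right of 0) or at least 4-fold lower (blue, left of 0) in each pathway list, for the 3 comparisons; the number tested stands beside each name, and lists share genes. Matrix glycoproteins and proteoglycans hold the most genes higher in nasal than in blood neutrophils, at 8 of 14 and 6 of 15, against 13.1% of all tested genes. Fn1 and Sdc3, counted in these lists, entered the tested set through nasal neutrophils alone. Without the members, the matrix glycoproteins hold 5 of 11. Of the transglutaminases, which include Tgm2, 3 of 3 are lower in DP than in nasal neutrophils, against 3.62% of all tested genes.

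Over the 3 libraries, the genes most like Thbs1 among 6251 with a mean of 5 FPKM or more were Cxcl10, Fosb, Hspa1a, Mir330 and Hspa1b, at distances of 0.96 to 1.30 on the log2 scale. Cxcl10, which encodes an interferon-induced chemokine, was at 29.5 FPKM in DP cells, 411 in the neutrophils of the nose and 2.85 in those of blood. Fosb, which encodes an immediate early transcription factor, was at 5.08 FPKM in DP cells, 112.3 in the neutrophils of the nose and 0.28 in those of blood. Hspa1a and Hspa1b are near-identical copies, so the division of reads between them is uncertain. The likeness is over 3 libraries only and uses the pseudocount of 1 FPKM.

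**Figure D5:**
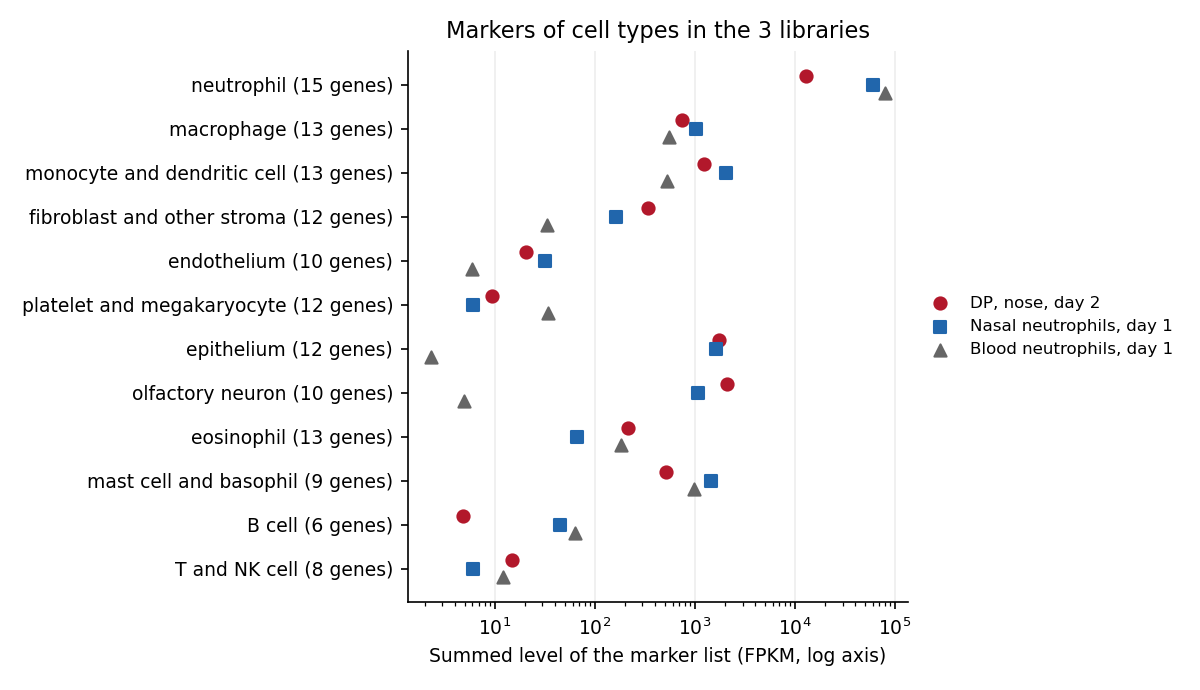
Summed level of each marker list in FPKM (horizontal axis, log) in DP, nasal neutrophils and blood neutrophils, with 1 point per library and the number of genes beside each name. Epithelial and olfactory neuron sums are at 1643 FPKM or more and 1082 FPKM or more in the nasal libraries and under 5 FPKM in blood neutrophils, and the neutrophil sum is lowest in DP at 13014 FPKM.

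Other marker lists bear on what cells the gates held. The 13 eosinophil markers summed to 217 FPKM in DP cells, 66.6 in the neutrophils of the nose and 182 in those of blood, of which Siglec5 was 168 in DP, and the eosinophil granule genes Epx and Prg3 were listed at 0 in all 3 libraries. The 10 endothelial markers summed to 20.7 FPKM in DP cells, 31.9 in the neutrophils of the nose and 5.95 in those of blood, with Cdh5, Tek, Tie1, Emcn, Plvap and Cldn5 listed at 0 in blood. The 9 mast cell and basophil genes were nearly all Hdc, at 517 FPKM in DP cells, 1456 in the neutrophils of the nose and 982 in those of blood. B cell markers summed to 4.84, 45.4 and 63.7 FPKM and T and NK cell markers to 15.0, 6.11 and 12.2 FPKM in DP, nasal neutrophils and blood neutrophils.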

How the data were processed

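RNA of 3 sorted populations was made into libraries with a low-input kit, per the labels' protocols. The deposited values are FPKM per gene, made by the authors; the submitters' processing notes name Cufflinks 2.1.1, TopHat2 2.0.8 and Bowtie2 2.1.0 and the mm9 genome, without settings. FPKM are estimates, so no count model was used. Groups came from the sample titles, with 1 library each, so no test was run. FPKM values above 0 and below 1e-06 (numbering 32, 20 and 43 in DP, nasal and blood neutrophils) were set to 0.

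From there, log2 ratios were computed with a pseudocount of 1 FPKM over genes with a mean of 1 FPKM or more (10719 genes), and 4-fold, a log2 ratio of 2, was the threshold. Counting steps were tested on simulated data. Depth came from the commonest lowest value times transcript length, over genes with 1 transcript above 1500 nt, and is approximate. Lengths came from GENCODE M21, which is another build, matched for 98.7% of tested genes and used as lengths only. Fragments behind a value are that value times length over the step.

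The 10 members and the 12 pathway and 12 marker lists were chosen with earlier results of these data known. Named genes are the members, up to 4 others per pathway list with the largest ratio in DP over nasal or nasal over blood neutrophils at a mean of 5 FPKM or more, the 2 highest genes per marker list, the 5 most like Thbs1, and the sort genes Siglec5 and Ptprc. Cd47, Thbs2, Thbs3, Thbs4, Comp, Itgb2, Plg, Mmp2, Tgfb1, Ear2, Sdc3, Ly6c2, Itgax, Csf3r, genes listed at 0 and the motifs lie outside that rule, having been picked with their values in view. Adgre1, Jchain and Trbc2 were not analysed here. Each result was recomputed with a pseudocount of 0.1 or 5, no filter, a mean of 5 FPKM or more, rescaling to a sum of 1000000, centring on the median, upper-quartile scaling and a 2-fold threshold; 2 further alternatives were chosen after seeing the data, omission of genes at 0 and a correction over 20 bins of transcript length. Computation used Python 3.11.15, numpy 2.4.6 and pandas 2.3.3.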

Additional observations from a re-analysis of the deposited data

How the results depend on the processing

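The count of members past the threshold and lower in DP than in nasal neutrophils lay between 2 and 4 under every alternative, and 0 passed it upward under any. The 2-fold threshold gave 4 lower. Of 7 members at least 4-fold higher in nasal than in blood neutrophils, 4 were left with a pseudocount of 5 FPKM, which lowers the ratios of Fn1, Mmp14 and Timp1 by its construction. For DP over blood neutrophils the 3 higher members became 5 with a pseudocount of 0.1, 1 with a pseudocount of 5 and 6 at 2-fold, and the 0 lower became 1 with centring and 1 at 2-fold. No ratio past 4-fold changed sign under the alternatives run. Over all genes, 903 higher and 388 lower in DP than in nasal neutrophils became 1390 higher with a pseudocount of 0.1, 441 and 203 with one of 5, 360 and 773 with centring and 350 and 734 with upper-quartile scaling. For nasal over blood neutrophils, 1408 and 346 became 2886 higher with a pseudocount of 0.1, 470 and 215 with one of 5, and 609 lower with centring. For DP over blood neutrophils, 2577 and 383 became 941 higher with a pseudocount of 5, 1630 higher over genes averaging at least 5 FPKM, 1116 and 971 with centring and 1594 and 788 with upper-quartile scaling. At 2-fold the counts were 3600 and 1207, 3595 and 1372, and 5214 and 1017. Values in nasal neutrophils rest on the fewest fragments per FPKM. No paired analysis was possible because each group is 1 library and the labels give no replicate numbers.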
